A study of Homo sapiens with 18 samples.

Results

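SJSA-1 is a line of human osteosarcoma cells in which the MDM2 and CDK4 genes are amplified. It was treated with the CDK4/6 inhibitor PD0332991 (Palbociclib) at 10 µM for 30 h (PD30), or for 24 h followed by 6 h in which the inhibitor was removed (PD24). Both schedules were also run with the MDM2 antagonist Nutlin at 20 µM in the last 6 h (N+PD30 and N+PD24). These 4 groups of 3 replicates make 12 of the 18 RNA sequencing libraries of the study, and were chosen by their labels. The remaining 6 libraries, 3 treated with the solvent DMSO and 3 with Nutlin alone for 6 h, entered only where named. The question is which genes respond to removal of the inhibitor in a way that depends on Nutlin. The removal effect is the log2 level in PD24 minus that in PD30, or in N+PD24 minus that in N+PD30, and the double difference is the removal effect with Nutlin minus the one without it. A positive double difference means that, after removal, a gene rose more or fell less with Nutlin than without it. By its construction the same number is also the effect of Nutlin in PD24 minus the effect of Nutlin in PD30.

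MDM2 is the ubiquitin ligase that keeps the transcription factor p53 low, and Nutlin occupies the pocket on MDM2 that binds p53, so that p53 accumulates and its target genes are transcribed. CDK4 and CDK6 with a D cyclin phosphorylate the retinoblastoma protein, which then releases E2F factors, the activators of the genes for DNA replication. PD0332991 blocks these kinases and holds cells in G1. Mitotic genes lie further downstream and are repressed by the DREAM complex in arrested cells. All libraries come from 1 cell line, and a changed share of cells in a given state and a changed level per cell cannot be told apart in such bulk RNA.

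The 12 libraries held between 12704845 and 40231041 counts, with the fewest in replicate 1 of N+PD30. Levels are given in CPM, the counts scaled to a common library total with TMM factors. Of the osteoblast lineage markers, COL1A1 (1084 to 3717 CPM), SPARC and RUNX2 were present in all 18 libraries, while SP7, BGLAP and IBSP stayed at or below 0.256 CPM. The 8 markers of leukocytes, endothelium, epithelium and liver summed to 10.4 to 14.5 CPM in PD30, 9.47 to 15 in PD24, 12.5 to 22.8 in N+PD30 and 20.2 to 25 in N+PD24. The leukocyte marker PTPRC was at or below 0.5 CPM throughout, CD3E was lower still, and the endothelial gene VWF alone of the 4 markers tested passed the test of the double difference, at 1.22 (SE 0.30, adjusted p = 0.016). The libraries also differed in a measure of composition. The correlation across genes between a library's deviation from the mean log2 level and the GC content of the transcript was 0.11 to 0.50 in N+PD30, -0.42 to -0.14 in PD30, -0.25 to 0.27 in PD24 and -0.26 to 0.15 in N+PD24. The part of these markers and of GC content in the gene-level results was not tested beyond the GC smoothing given further on.

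Removal of PD0332991 had a different effect with Nutlin than without it in 2065 of 14662 genes tested. The double difference was positive in 602 genes (4.11%) and negative in 1463 (9.98%), by limma with a Benjamini-Hochberg adjusted p under 0.05. With an absolute double difference above 1 on the log2 scale, 376 (2.56%) and 742 (5.06%) remained. Without Nutlin, 1935 genes (13.2%) rose and 1626 (11.1%) fell upon removal. With Nutlin, 2381 (16.2%) rose and 3207 (21.9%) fell. The counts rest in part on single libraries: without replicate 1 of PD30 they were 340 higher and 814 lower, without replicate 2 of N+PD24 327 and 938, and without replicate 2 of PD24 378 genes were higher. With quantile normalization, the split was 891 higher and 1002 lower.

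In most of these genes the removal effects had opposite signs. Of the 602 genes with a positive double difference, 351 had a level below PD30 after removal without Nutlin and a level above N+PD30 after removal with it, and 40 of them passed the test in both. In 207 of the 351 genes only the removal effect with Nutlin passed the test, and in 82 only the one without it. A further 186 had positive removal effects in both arms and 65 negative ones. Of the 1463 genes with a negative double difference, 1090 were above PD30 without Nutlin and below N+PD30 with it, 134 of them past the threshold in both. In 667 of the 1090 only the removal effect with Nutlin passed. The median removal effect of the 602 genes was -0.22 without and 0.88 with Nutlin, and that of the 1463 genes was 0.29 and -0.74, against 0.038 and -0.054 over all genes tested.

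**Figure D1:**
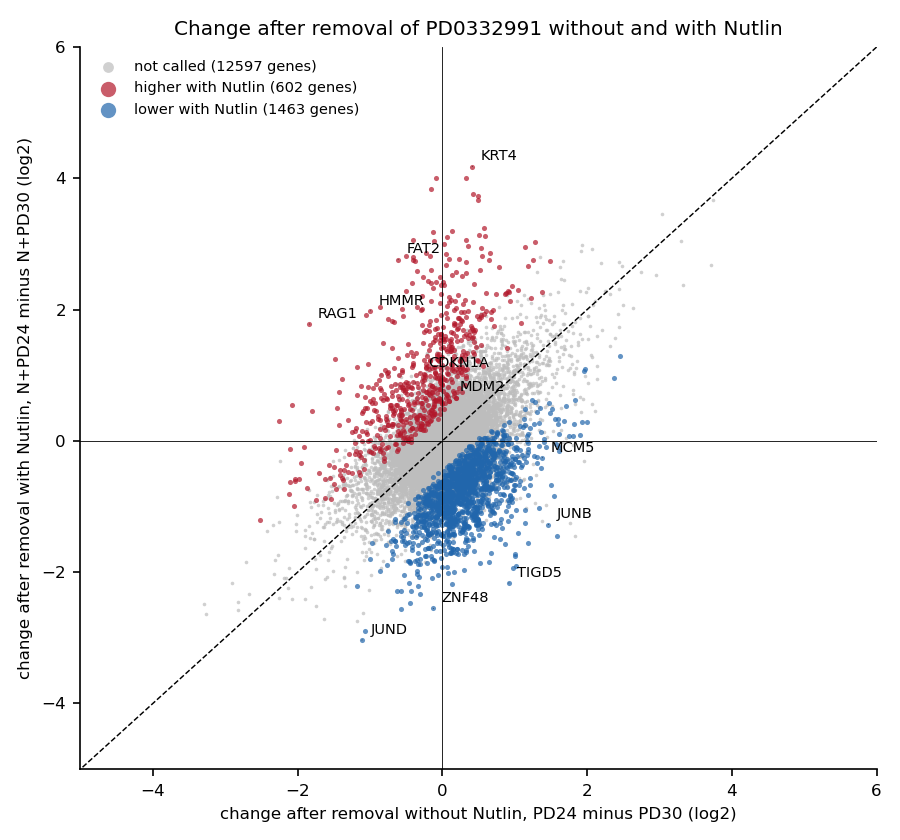
Each point is 1 of 14662 genes, with its removal effect without Nutlin on the x axis and with Nutlin on the y axis (log2, means of 3 replicates per group), and the dashed line marks equal effects. The 602 red genes lie above the line, mostly left of or near x = 0 and above y = 0, and the 1463 blue genes lie below it, mostly at the lower right.

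Among named genes with a mean of at least 2 CPM over the 12 libraries, the largest positive double difference belonged to KRT4 (chr12:53200333-53207900, minus strand, GRCh37), which encodes a keratin of stratified epithelia. Its level per library was 0.508, 0.135 and 0.164 CPM in PD30, 0.706, 0.212 and 0.394 in PD24, 2.19, 1.46 and 0.947 in N+PD30 and 30.0, 27.3 and 35.6 in N+PD24. The N+PD24 libraries stood apart from all others, while PD24 and PD30 overlapped. The double difference was 3.77 (SE 0.46, adjusted p = 0.00056), made up of a removal effect of 0.41 without and 4.18 with Nutlin. KRT78 and KRT77, type II keratin genes of the same region of chromosome 12, were also among the 12 leading genes. KRT78 had 0.222, 0.0809 and 0.0822 CPM in PD30, 0.302, 0.254 and 0.197 in PD24, 0.488, 0.204 and 0.331 in N+PD30 and 5.65, 8.21 and 9.44 in N+PD24 and a double difference of 3.34 (SE 0.36, adjusted p = 0.00033). KRT77 stood at 3.08, 1.24 and 3.75 CPM in PD30, 0.638, 0.127 and 0.295 in PD24, 4.47, 3.03 and 10.1 in N+PD30 and 4.02, 6.88 and 9.52 in N+PD24, so that without Nutlin removal lowered it, whereas N+PD24 and N+PD30 overlapped, and its double difference was 2.55 (SE 0.67, adjusted p = 0.024). The call of KRT77 was lost in 6 of 27 alternative settings (adjusted p up to 0.0656), 5 of which left out 1 library (replicate 2 of PD24, N+PD24 or N+PD30, or replicate 1 or 3 of PD30), and those of KRT4 and KRT78 in none. Over all numbered keratin symbols, a family looked at after its leading members had been seen, 6 of 19 tested were higher and 0 lower (all genes, 4.11% and 9.98%), with a median double difference of 0.11. The filters use the mean over the 12 libraries, and KRT4 and KRT78 reached 2 CPM through N+PD24. RAG1, FAT2, GOLGA6C and RPSAP52, given below, did so as well. Genes that pass in this way can come out only as higher, so the count and the ranks are a description.

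RAG1, a subunit of the recombinase that assembles antigen receptor genes, went in opposite directions in the 2 arms (chr11:36531922-36614706, plus strand). Its levels were 1.52, 1.89 and 2.14 CPM in PD30, 0.37, 0.212 and 0.443 in PD24, 1.38, 1.53 and 1.85 in N+PD30 and 5.21, 6.7 and 6.24 in N+PD24. PD24 was the lowest group and N+PD24 the highest, with no overlap between a removal group and its continuous counterpart. The removal effects were -1.84 (adjusted p = 6.8e-05) without and 1.78 (adjusted p = 3.1e-05) with Nutlin, and the double difference 3.62 (SE 0.29, adjusted p = 7.0e-05). ZC3H6, which encodes a CCCH zinc finger protein, showed this as well. It measured 9.81, 8.68 and 12.8 CPM in PD30, 2.39, 1.99 and 2.36 in PD24, 11.3, 15 and 17.6 in N+PD30 and 18.2, 22.2 and 23.4 in N+PD24, and its double difference was 2.63 (SE 0.26, adjusted p = 0.00023). MYO16, for an unconventional myosin, also fell without Nutlin (-1.49, adjusted p = 0.0012) and rose with it (1.24, adjusted p = 0.0021).

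FAT2, GOLGA6C, ABCC2 and INHBC rose upon removal with Nutlin and did not pass the test without it. FAT2, a protocadherin, was at 1.08, 0.701 and 1.15 CPM in PD30, 0.504, 0.466 and 0.664 in PD24, 0.65, 1.4 and 1.52 in N+PD30 and 7.91, 9.77 and 9.74 in N+PD24. N+PD24 lay above the other 9 libraries, and the double difference was 3.38 (SE 0.36, adjusted p = 0.00033). The golgin family member GOLGA6C had levels of 1.17, 1.24 and 1.7 CPM in PD30, 1.38, 1.31 and 1.45 in PD24, 1.71, 1.33 and 0.947 in N+PD30 and 10.0, 12.7 and 14.0 in N+PD24, which left PD24 and PD30 overlapping, and a double difference of 2.98 (SE 0.29, adjusted p = 0.00022); it has close copies on chromosome 15 among which reads may be split. ABCC2, an export pump for organic anions, had a double difference of 2.63 and INHBC, an inhibin beta subunit, of 2.57. RPSAP52 (2.96), a transcribed ribosomal protein pseudogene that overlaps HMGA2 on the other strand, fell without Nutlin (-1.05, adjusted p = 0.019) and rose with it (1.91, adjusted p = 0.00024). RAG1, FAT2, MYO16, ABCC2, ZC3H6 and KRT77 also overlap annotated genes on the other strand, and the sources used here name reverse-stranded counting. RAG1 overlaps an annotated gene on its own strand as well, which a strand setting does not separate.

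**Figure D2:**
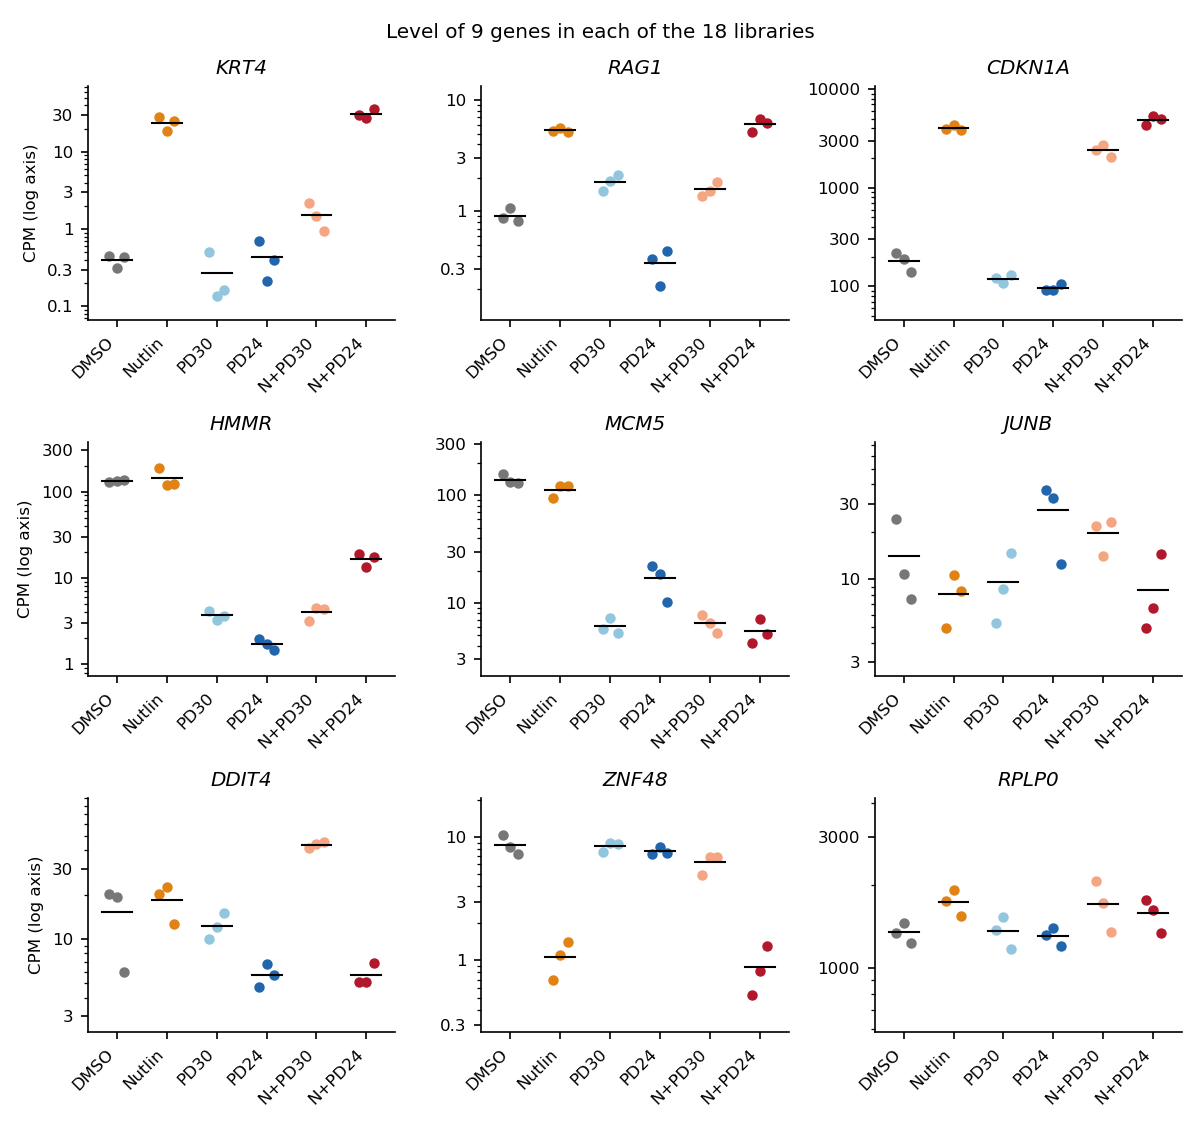
Each panel shows 1 gene, with 1 point per library (CPM, log axis), a line at the mean of 3 replicates, and the groups DMSO, Nutlin, PD30, PD24, N+PD30 and N+PD24 from left to right. KRT4 and RAG1 are highest and ZNF48 lowest in Nutlin and N+PD24, MCM5 is above its PD30 level in PD24 but not in N+PD24, DDIT4 is highest in N+PD30, and RPLP0 overlaps between schedules.

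On the negative side, the 12 leading genes included 5 C2H2 zinc finger genes with ZNF symbols. ZNF48 (chr16:30389427-30411429, plus strand, GRCh37) encodes one of them, and its levels were 7.49, 8.92 and 8.79 CPM in PD30, 7.32, 8.26 and 7.41 in PD24, 4.96, 6.91 and 6.87 in N+PD30 and 0.53, 0.824 and 1.32 in N+PD24. PD24 and PD30 overlapped, while each N+PD24 library lay below every N+PD30 library. The removal effect was -0.13 without and -2.55 with Nutlin, and the double difference -2.43 (SE 0.32, adjusted p = 0.00063). ZNF256 showed opposite directions instead, with 1.68, 2.29 and 2.77 CPM in PD30, 4.07, 4.32 and 4.31 in PD24, 3.25, 1.97 and 3.22 in N+PD30 and 0.795, 0.597 and 0.903 in N+PD24. PD24 lay above PD30 and N+PD24 below N+PD30 in every library, and the double difference was -2.44 (SE 0.31, adjusted p = 0.00062). For ZNF628, ZNF71 and ZNF775 it was -2.91, -2.39 and -2.38. On the same strand, ZNF71 overlaps ZIM2-AS1 and ZNF775 overlaps REPIN1.

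Since these symbols recurred, the family was counted after its leading members had been seen, so the count is a description. Of 455 tested genes with a ZNF symbol, 178 (39.1%) had a negative double difference past the threshold and 8 (1.76%) a positive one, where all genes gave 9.98% and 4.11%. The family's median removal effect was 0.15 without and -0.51 with Nutlin. As a family these genes are not GC-rich (median 43.2% over their transcripts, 48.4% over all genes tested). After GC content had been smoothed out of each library 217 were lower and 8 higher. Of all 13922 genes in that fit, 1626 were lower and 612 higher. It held only genes with a known GC content. The named ZNF628 (70.8%), ZNF775 (69.3%), ZNF48 (60.3%) and ZNF71 (55.2%) lay above the median of all genes, and ZNF256 (46.6%) below it. With GC content smoothed out their double differences were -1.77, -1.37, -2.08, -2.28 and -2.53. Many ZNF genes stand in clusters on chromosome 19 and share sequence, so that they are not independent of one another.

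The other leading negative genes encode proteins of several kinds. HIC1, a transcriptional repressor that is itself a p53 target, had 1.048, 2.67 and 2.6 CPM in PD30, 7.66, 9.87 and 3.42 in PD24, 16.4, 11.7 and 9.76 in N+PD30 and 2.65, 4.49 and 6.84 in N+PD24. It was raised by removal without Nutlin and lowered with it, with no overlap in either arm, and its double difference was -3.04 (SE 0.59, adjusted p = 0.0053). MEX3B, an RNA-binding protein, measured 5.52, 6.77 and 10.2 CPM in PD30, 17.2, 15.2 and 13.4 in PD24, 14.2, 13.8 and 17.1 in N+PD30 and 4.42, 4.63 and 8.01 in N+PD24. Its removal effects were 1.04 and -1.41, both past the threshold, and the double difference was -2.45 (SE 0.34, adjusted p = 0.00082). SOCS1, an inhibitor of cytokine receptor signalling, stood at 2.06, 5.12 and 3.89 CPM in PD30, 6.32, 12.2 and 6.52 in PD24, 8.78, 7.05 and 5.11 in N+PD30 and 1.55, 3.24 and 3.91 in N+PD24, with a double difference of -2.39 (SE 0.52, adjusted p = 0.0094). TIGD5 (-3.08), of the family of transposon-derived genes, ZNHIT2 (-2.92), and the microtubule-associated MAP1S (-2.76) completed the group. With GC content smoothed out of each library, their values were -2.43, -1.99 and -1.84. In these last 3 genes N+PD24 was below N+PD30 in every library, while PD24 overlapped PD30.

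The genes sorted by the double difference were then followed in the DMSO and Nutlin libraries, which had no part in it. Of the 602 genes with a positive double difference, 474 (78.7%) rose with Nutlin alone against DMSO and 16 (2.66%) fell. Of the 1463 with a negative one, 1116 (76.3%) fell and 29 (1.98%) rose. Over all genes tested, 21.9% rose and 31.5% fell. The median Nutlin effect of the 602 genes was 1.11 without PD0332991, 1.25 in PD24 and 0.00264 in PD30, on the log2 scale, and that of the 1463 genes was -0.80, -0.98 and 0.00422. The last 2 values of each set belong to the contrast that chose the genes and are given as a description.

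Read from the other side, genes chosen by Nutlin against DMSO alone had a larger median Nutlin effect after removal than under continuous inhibitor. The 3206 genes that rose with Nutlin had a median Nutlin effect of 0.71 without inhibitor, 0.47 in PD24 and 0.27 in PD30, and 474 of them (14.8%) had a positive and 29 (0.905%) a negative double difference. The 4618 genes that fell had medians of -0.69, -0.58 and -0.28, with 1116 (24.2%) lower and 16 (0.346%) higher. In both sets the median Nutlin effect of PD24 was nearer to that without inhibitor than the one of PD30 was; this was not tested over libraries. Among the 6838 genes past no threshold for Nutlin alone, 112 (1.64%) were higher and 318 (4.65%) lower. Across all 14662 genes the double difference and the effect of Nutlin alone had a Pearson correlation of 0.55 (Spearman 0.47), which is over genes of the same libraries and carries no test.

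**Figure D3:**
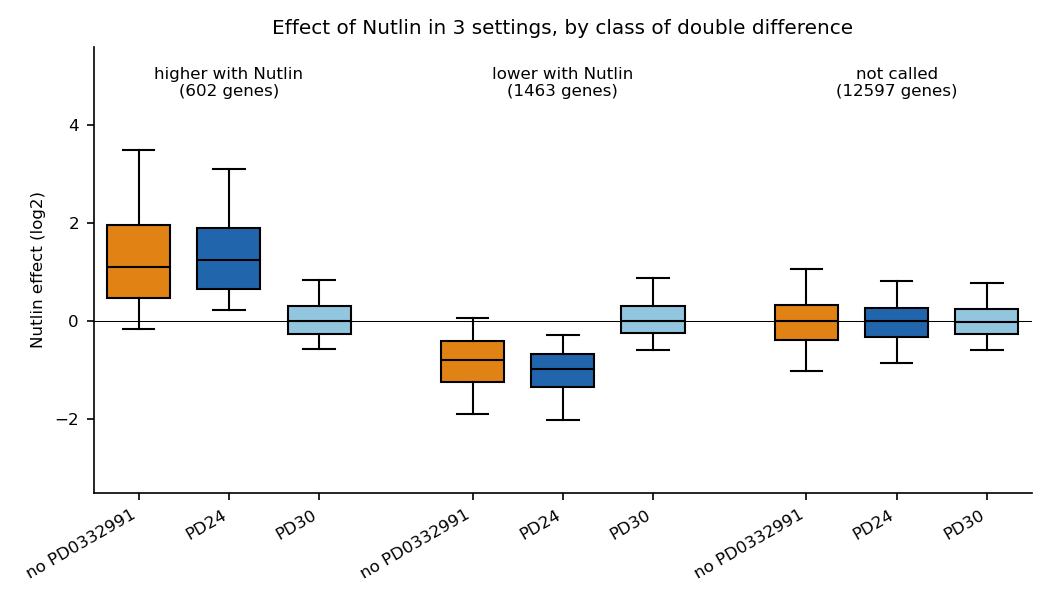
Box plots of the log2 effect of Nutlin per gene without PD0332991 (Nutlin against DMSO), in PD24 and in PD30, for the 602 higher, 1463 lower and 12597 remaining genes (box, quartiles with the median; whiskers from percentile 5 to percentile 95). In both called classes the boxes without inhibitor and in PD24 lie on the same side of 0, while the boxes of PD30 straddle it; the PD24 and PD30 boxes show the values by which the classes were chosen.

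Of 108 p53 targets, 102 were tested, 8 had a positive and 19 a negative double difference, and the median was -0.20, against -0.051 over all genes. These shares, 8 and 19 of 102, stand beside 4.11% and 9.98% of all genes. Without replicate 2 of PD24, replicate 1 or 3 of PD30, replicate 1 of N+PD24 or replicate 1 or 2 of N+PD30, 1 library left out at a time, 4 to 5 targets were higher. Without replicate 1 or 2 of PD24, replicate 1 or 2 of PD30, replicate 2 of N+PD24 or replicate 2 of N+PD30, 1 library left out at a time, 9 to 12 targets were lower. Of all genes, the first of these fits called 340 to 553 higher (602 with all 12 libraries) and the second 814 to 1319 lower (1463). The cell cycle inhibitor CDKN1A (p21) was among the higher targets (chr6:36644237-36655114, plus strand, GRCh37). Its level was 216, 189 and 139 CPM in DMSO, 3922, 4297 and 3859 in Nutlin, 122, 108 and 129 in PD30, 92.2, 91.6 and 105 in PD24, 2442, 2722 and 2035 in N+PD30 and 4330.5, 5384 and 4995 in N+PD24. Each N+PD24 library was above each N+PD30 library, and each PD24 library below each PD30 library. The removal effect was -0.31 (adjusted p = 0.088) without Nutlin and 1.04 (adjusted p = 4.9e-05) with it, for a double difference of 1.35 (SE 0.18, adjusted p = 0.00068) that held in all 27 alternatives. Nutlin raised CDKN1A by 5.66 in PD24 and 4.32 in PD30.

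MDM2, the negative feedback regulator of p53 and the target of Nutlin, had levels of 1187, 1116 and 1496 CPM in PD30, 1568, 1189 and 1364 in PD24, 6427, 7884 and 7699.8 in N+PD30 and 15167, 9900.3 and 10462 in N+PD24. N+PD24 lay above N+PD30, with a removal effect of 0.67 (adjusted p = 0.0078), but the double difference of 0.55 (SE 0.24, adjusted p = 0.14) did not pass the threshold, nor did it in any alternative. TP53I3, a quinone oxidoreductase, rose upon removal in both arms, by 0.65 without and 0.45 with Nutlin, and its double difference was -0.20 (SE 0.23, adjusted p = 0.59). Its sign turned when GC content was smoothed out. BBC3 (PUMA), which neutralises anti-apoptotic BCL2 proteins, was at 1.4, 2.08 and 3.42 CPM in PD30, 2.25, 2.63 and 1.4 in PD24, 16.6, 23.3 and 24.7 in N+PD30 and 5.83, 8.72 and 15.3 in N+PD24. It fell with Nutlin (-1.18, adjusted p = 0.017), whereas the double difference of -1.10 (SE 0.49, adjusted p = 0.15) missed the threshold, passed it without replicate 3 of N+PD24 (-1.46) and came to 0.053 with GC content and gene span smoothed out. The difference of direction between CDKN1A and BBC3 was not tested itself.

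By role, 4 of 20 apoptosis genes among the p53 targets were higher and 3 lower. The higher ones were the death receptors TNFRSF10A (2.05), FAS (0.79) and TNFRSF10B (0.52) and the mitochondrial pore protein BAX (0.46). Of the 20 values, 10 lay above 0 and 10 below it, down to -1.26, and the median was -0.010. TNFRSF10A, a receptor for TRAIL, had 0.603, 0.539 and 0.685 CPM in PD30, 0.47, 0.381 and 0.517 in PD24, 0.731, 0.409 and 0.663 in N+PD30 and 2.12, 2.78 and 2.97 in N+PD24, and N+PD24 exceeded the other 9 libraries. ABCA12, a lipid transporter, was at 0.54, 0.512 and 0.329 CPM in PD30, 0.235, 0.254 and 0.197 in PD24, 3.01, 3.34 and 2.84 in N+PD30 and 5.3, 6.96 and 7.86 in N+PD24, with a double difference of 1.61 (SE 0.27, adjusted p = 0.0026). PD24 lay below PD30, with an adjusted p of 0.051, and N+PD24 above N+PD30. TRIM22 (0.98) and RPS27L (0.60) were also higher. Of the 10 tested arrest genes, 4 were lower, among them the antiproliferative factor BTG2 (-1.04) and the stress sensor GADD45A (-0.89), and CDKN1A alone was higher, where over all genes 9.98% were lower and 4.11% higher. The lower targets further included SERTAD1, a cofactor of E2F and DP proteins, with 7.87, 9.41 and 9.15 CPM in PD30, 20.8, 26.4 and 16.1 in PD24, 27.2, 23.2 and 24.8 in N+PD30 and 14.7, 15.2 and 21.5 in N+PD24 and a double difference of -1.77 (SE 0.26, adjusted p = 0.0012). SERTAD1 rose upon removal without Nutlin and fell with it, and did not pass the test of Nutlin against DMSO (-0.25, adjusted p = 0.38). SCO2, an assembly factor of cytochrome c oxidase, had the most negative value, -2.39 (SE 0.66, adjusted p = 0.03), with a mean of 0.539 CPM, an overlap with TYMP on the same strand, and a call that was lost in 5 of 24 alternatives, with an adjusted p up to 0.0798. Nor did SCO2 pass the test of Nutlin against DMSO (-0.45, adjusted p = 0.37).

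Genes of the G1/S transition and of DNA replication are activated by E2F factors. Of 55 tested (56 listed), 29 rose and 1 fell upon removal without Nutlin, while with Nutlin 7 rose and 7 fell. Over all genes, 13.2% without and 16.2% with Nutlin rose. The double difference was negative past the threshold in 18 and positive in 1, and its median was -0.59, where 4.11% of all genes were higher and 9.98% lower. Some fits that left out 1 library gave 9 to 11 lower members. The library was replicate 1 or 2 of PD24, replicate 1 or 3 of PD30 or replicate 2 of N+PD30. These fits called 814 to 1319 of all genes lower, against 1463 with all 12 libraries. MCM5, a subunit of the replicative helicase, was at 155, 133 and 129 CPM in DMSO, 5.68, 7.33 and 5.23 in PD30, 22.1, 18.5 and 10.1 in PD24, 7.8, 6.57 and 5.3 in N+PD30 and 4.24, 7.1 and 5.15 in N+PD24. PD24 exceeded PD30 in every library, whereas N+PD24 and N+PD30 overlapped, and all 4 groups stayed far below DMSO. Its removal effect was 1.38 (adjusted p = 0.0027) without and -0.26 (adjusted p = 0.48) with Nutlin, and the double difference -1.64 (SE 0.38, adjusted p = 0.013). The helicase subunits MCM2 (-0.78), MCM3 (-1.12), MCM4 (-1.06) and MCM7 (-0.82), the phosphatase CDC25A (-1.55), which activates CDK2, and cyclin E1 (CCNE1, -1.34), the partner of CDK2, were lower as well. POLD1, the catalytic subunit of DNA polymerase delta, had -1.61 (SE 0.45, adjusted p = 0.031), and its call was lost in 8 of 27 alternatives, with an adjusted p up to 0.0874.

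TYMS, which makes thymidylate for DNA synthesis, was the only member of this list that was higher. It had 81.9, 86.1 and 82.9 CPM in DMSO, 114, 124 and 108 in Nutlin, 2.67, 2.37 and 2.0 in PD30, 1.92, 1.57 and 1.3 in PD24, 9.51, 10.7 and 8.9 in N+PD30 and 12.4, 11.4 and 11.9 in N+PD24. Nutlin raised it under both schedules, by 2.73 in PD24 and 1.94 in PD30, and the double difference was 0.79 (SE 0.23, adjusted p = 0.035), with the call lost in 10 of 27 alternatives, with an adjusted p up to 0.102. TYMS overlaps ENOSF1 and TYMSOS on the other strand. E2F motifs (TTTCGCGC, TTTGGCGC or TTTCCCGC, either strand) stood in the 250 bases before the start of the principal annotated transcript of 16 of 55 (29.1%) of these genes and of 508 of 13946 (3.64%) of all genes tested. Upstream of the 1463 lower genes they stood in 87 of 1434 (6.07%) of the promoters found, and upstream of the 602 higher genes in 8 of 524 (1.53%). The lower member with the most negative value, the higher member and the factor E2F2 are shown with the motif in capitals, 5′ to 3′ on the strand of the gene, in GRCh37. In MCM5 2 matches overlap.
MCM5, chr22:35795883-35796132, plus strand: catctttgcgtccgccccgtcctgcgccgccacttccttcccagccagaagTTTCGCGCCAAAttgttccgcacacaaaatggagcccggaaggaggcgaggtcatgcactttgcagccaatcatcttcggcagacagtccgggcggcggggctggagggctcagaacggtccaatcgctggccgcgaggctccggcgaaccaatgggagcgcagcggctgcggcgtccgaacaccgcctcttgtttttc
TYMS, chr18:657403-657652, plus strand: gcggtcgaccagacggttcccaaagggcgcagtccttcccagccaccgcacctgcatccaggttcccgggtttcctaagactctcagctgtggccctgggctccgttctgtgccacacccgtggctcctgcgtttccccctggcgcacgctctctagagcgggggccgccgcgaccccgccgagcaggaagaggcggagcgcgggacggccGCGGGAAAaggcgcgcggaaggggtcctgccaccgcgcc
E2F2, chr1:23857726-23857975, minus strand: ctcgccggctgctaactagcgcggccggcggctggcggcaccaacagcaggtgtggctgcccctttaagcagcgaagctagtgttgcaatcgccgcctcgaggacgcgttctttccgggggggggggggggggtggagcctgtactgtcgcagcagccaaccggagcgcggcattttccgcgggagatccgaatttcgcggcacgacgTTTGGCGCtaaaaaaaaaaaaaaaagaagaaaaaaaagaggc

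Of the 34 tested regulators in the CDK, RB and E2F pathway, 1 was higher and 3 were lower, shares near those of all genes (4.11% and 9.98%). Without replicate 1 of PD30, replicate 2 of N+PD24 or replicate 3 of N+PD30, 1 library left out at a time, 1 was lower. These fits called 814 to 1415 of all genes lower, against 1463 with all 12 libraries. E2F2, one of the activating E2F factors, was at 20.3, 17.9 and 17.9 CPM in DMSO, 2.6, 2.56 and 2.95 in Nutlin, 1.02, 0.674 and 0.548 in PD30, 0.706, 0.551 and 0.812 in PD24, 0.731, 0.443 and 0.521 in N+PD30 and 1.59, 3.07 and 2.29 in N+PD24. It fell with Nutlin alone (-2.64, adjusted p = 8.4e-07), yet N+PD24 lay above N+PD30, PD24 and PD30 in every library. The double difference was 1.70 (SE 0.36, adjusted p = 0.0086). The 3 lower genes were LIN9 (-1.52, SE 0.42, adjusted p = 0.031, call lost in 7 of 26 alternatives, with an adjusted p up to 0.11) and LIN37 (-1.22, SE 0.24, adjusted p = 0.0055), both subunits of the MuvB core that is shared by DREAM and MYB complexes, and the D cyclin CCND2 (-0.81). LIN9 rose upon removal without Nutlin only, and LIN37 fell with Nutlin only, by their own tests. For the inhibitor's direct targets and their substrate, none of the double differences passed the threshold. They were -0.17 (SE 0.17, adjusted p = 0.53) for CDK4, 0.23 (SE 0.19, adjusted p = 0.45) for CDK6, -0.053 (SE 0.15, adjusted p = 0.84) for CCND1 and 0.23 (SE 0.21, adjusted p = 0.49) for RB1. With an SE of 0.15 to 0.21, small differences in these genes were not detectable.

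Mitotic genes are transcribed later in the cell cycle than replication genes. Of 53 tested (54 listed), 3 were higher and 3 lower, and the median double difference was 0.35, with 36 of 53 values above 0. Over all genes, 4.11% were higher and 9.98% lower, so these counts are near the background or below it. Over all alternatives the median was 0.24 to 0.54. Fits without replicate 3 of N+PD24 or replicate 2 of N+PD30 called 477 and 475 of all genes higher (main fit, 602). Each left out 1 library, and 5 members of the list were higher. HMMR, which encodes a hyaluronan receptor that binds the mitotic spindle, led them (chr5:162887209-162918947, plus strand, GRCh37). Its level was 129, 131 and 137 CPM in DMSO, 187, 119 and 121 in Nutlin, 4.19, 3.26 and 3.59 in PD30, 1.95, 1.74 and 1.48 in PD24, 3.17, 4.46 and 4.36 in N+PD30 and 18.7, 13.5 and 17.3 in N+PD24. PD24 was below PD30 and N+PD24 above N+PD30 in every library, all of them far below DMSO. The removal effects were -1.0 (adjusted p = 0.0018) and 1.98 (adjusted p = 8.8e-06), and the double difference was 2.98 (SE 0.26, adjusted p = 9.0e-05). HMMR did not pass the test of Nutlin against DMSO, at 0.12 (adjusted p = 0.54). The spindle protein ASPM (1.39, SE 0.33, adjusted p = 0.014) and the motor KIF11 (0.87) were the other higher genes. ASPM missed the threshold once GC content had been smoothed out. BORA, an activator of Aurora A, had -1.28 (SE 0.25, adjusted p = 0.0053), INCENP, the scaffold of the chromosomal passenger complex, -1.12 (SE 0.23, adjusted p = 0.0079), and cyclin F (CCNF) -0.91. The cell cycle genes homology region (TTTGAA or TTCGAA, either strand) was present upstream of 33 of 53 (62.3%) of the list and of 1287 of 13946 (9.23%) of all genes. It stood upstream of 55 of 524 (10.5%) of the higher and 123 of 1434 (8.58%) of the lower genes. In HMMR it occurs in tandem, and HMMR and ASPM are shown with it in capitals, in GRCh37.
HMMR, chr5:162887388-162887637, plus strand: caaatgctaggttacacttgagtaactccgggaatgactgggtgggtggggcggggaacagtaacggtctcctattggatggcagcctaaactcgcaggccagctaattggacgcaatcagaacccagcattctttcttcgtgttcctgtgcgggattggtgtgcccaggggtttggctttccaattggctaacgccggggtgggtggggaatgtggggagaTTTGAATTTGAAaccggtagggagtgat
ASPM, chr1:197115800-197116049, minus strand: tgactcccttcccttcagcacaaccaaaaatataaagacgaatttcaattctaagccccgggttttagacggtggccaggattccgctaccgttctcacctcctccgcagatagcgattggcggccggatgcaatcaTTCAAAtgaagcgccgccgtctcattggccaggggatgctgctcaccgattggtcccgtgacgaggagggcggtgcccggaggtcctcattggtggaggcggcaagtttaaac

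Immediate-early genes are transcribed within minutes of growth factor signalling, many through ERK. Of 46 tested (51 listed), 9 were lower and 2 higher, with a median removal effect of 0.44 without and -0.11 with Nutlin. Over all genes, 9.98% were lower and 4.11% higher. Of the AP-1 factors, 5 of 9 were lower and 0 higher. JUNB had 5.33, 8.76 and 14.7 CPM in PD30, 36.8, 32.8 and 12.6 in PD24, 21.8, 14.1 and 23 in N+PD30 and 4.95, 6.56 and 14.4 in N+PD24. The groups overlapped in both arms, since replicate 3 was low in PD24 and high in N+PD24, but the removal effects of 1.46 (adjusted p = 0.034) and -1.28 (adjusted p = 0.041) passed the threshold in opposite directions. Its double difference was -2.74 (SE 0.65, adjusted p = 0.014). JUND fell upon removal in both arms and more so with Nutlin, at 8.35, 12.9 and 14.6 CPM in PD30, 5.78, 6.87 and 3.64 in PD24, 24.9, 25.5 and 20.8 in N+PD30 and 1.72, 3.24 and 3.35 in N+PD24, for a double difference of -1.92 (SE 0.39, adjusted p = 0.007). Its transcript has a GC content of 69.9%, and with GC content smoothed out the double difference was -0.86 (adjusted p = 0.0084). JUN (-1.18), FOSL1 (-1.09) and FOSL2 (-0.73) were the other lower AP-1 genes. The remaining ones were ZFP36 (-1.51), which destabilises mRNAs with AU-rich elements, IER2 (-1.28), IER3 (-1.39) and the MAP kinase phosphatase DUSP1 (-0.87).

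The orphan nuclear receptor NR4A2 (1.08, SE 0.31, adjusted p = 0.033) and the ETS factor ETV1 (0.71, SE 0.16, adjusted p = 0.011) were the 2 higher members, a share near that of all genes. NR4A2 was at 1.048, 1.08 and 0.767 CPM in PD30, 0.538, 0.424 and 0.541 in PD24, 0.65, 0.919 and 0.474 in N+PD30 and 0.884, 0.852 and 1.13 in N+PD24, lower in PD24 than in PD30 and overlapping with Nutlin, and its call was lost in 9 of 26 alternatives, with an adjusted p up to 0.0876. A cAMP response element, the palindrome TGACGTCA, stood upstream of 6 of 46 (13%) of the list and 405 of 13946 (2.9%) of all genes tested. It is present in JUND, which is shown with the element in capitals, in GRCh37.
JUND, chr19:18392433-18392682, minus strand: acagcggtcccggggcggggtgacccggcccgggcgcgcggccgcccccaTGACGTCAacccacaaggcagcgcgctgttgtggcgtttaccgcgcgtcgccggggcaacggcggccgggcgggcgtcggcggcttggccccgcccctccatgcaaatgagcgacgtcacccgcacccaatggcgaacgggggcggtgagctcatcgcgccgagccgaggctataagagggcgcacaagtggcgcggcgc

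Genes of ribosome biogenesis include many MYC targets. All 37 were tested, and 27 rose upon removal without Nutlin and none fell, against 10 that rose and 2 that fell with it, where 13.2% without and 16.2% with Nutlin of all genes rose. The double difference was negative past the threshold in 14 and positive in 0, with a median of -0.52, against 9.98% and 4.11% of all genes. Some fits that left out 1 library gave 6 to 9 lower members. The library was replicate 2 of PD24, N+PD24 or N+PD30, or replicate 1 or 3 of PD30. These fits called 814 to 1210 of all genes lower, against 1463 with all 12 libraries. RRS1, an assembly factor of the large ribosomal subunit, had 35.5, 43.4 and 48.1 CPM in PD30, 85.0, 107 and 76.8 in PD24, 33.7, 32.1 and 36.5 in N+PD30 and 28.5, 28.8 and 35.6 in N+PD24. PD24 was above PD30 in every library and N+PD24 overlapped N+PD30, for a double difference of -1.22 (SE 0.21, adjusted p = 0.003). The nucleolar proteins BOP1 (-1.13, SE 0.34, adjusted p = 0.04), NOP56 (-0.62) and NOP16 (-0.61) and the RNA polymerase I factors POLR1B (-0.69) and UBTF (-0.66) were lower too, the call of BOP1 being lost in 14 of 27 alternatives, with an adjusted p up to 0.315. Other members did not differ past the threshold although removal raised them in both arms, such as ODC1 (1.84 and 1.82), the first enzyme of polyamine synthesis.

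Of 20 tested genes of NF-kB and cytokine signalling (24 listed), 14 rose upon removal without Nutlin and 7 with it, and 4 were lower by the double difference and 0 higher. Of all genes, 13.2% without and 16.2% with Nutlin rose upon removal, and 9.98% were lower and 4.11% higher by the double difference. Fits without replicate 1 or 2 of PD30 or replicate 2 of N+PD24 called 814 to 1198 of all genes lower (main fit, 1463). Each left out 1 library, and 1 to 2 members of the list were lower. The lower ones were the inhibitors NFKBIE (-1.53, SE 0.28, adjusted p = 0.0038) and NFKBIA (-0.77), the receptor adaptor TRAF1 (-1.42, SE 0.40, adjusted p = 0.031, call lost in 9 of 27 alternatives, with an adjusted p up to 0.0877) and the cytokine IL1A (-1.11). TRAF1 was at 0.413, 0.593 and 0.958 CPM in PD30, 4.97, 4.53 and 3.54 in PD24, 1.38, 1.02 and 1.42 in N+PD30 and 3.45, 1.65 and 3.35 in N+PD24 and rose in both arms. The strongly raised cytokine genes CSF2 (3.74 without and 3.67 with Nutlin), IL11 (2.31 and 2.23) and IL8 (2.01 and 2.33) had double differences of -0.062, -0.082 and 0.32, none past the threshold. Of 25 interferon-stimulated genes, the factor IRF1 alone was lower (-0.79, SE 0.19, adjusted p = 0.018; adjusted p = 0.0589 without replicate 1 of PD30 and 0.0802 with quantile normalization).

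In other lists few or no genes passed the test of the double difference. Cholesterol synthesis genes, targets of SREBP2, fell upon removal in 20 of 24 tested genes (25 listed) without Nutlin and in 16 with it, with a median of -1.61 and -1.20 over the list. None of the 24 passed the test of the double difference, although 20 values lay above 0, up to 4 passed in other settings and the median was 0.39. Of all genes, 11.1% fell without and 21.9% with Nutlin. Without replicate 1 or 3 of PD24, replicate 1 or 3 of N+PD24 or replicate 1, 2 or 3 of N+PD30, 1 library left out at a time, the median was 0.053 to 0.69. INSIG1, which retains SREBP factors in the endoplasmic reticulum, had -3.26 without and -2.64 with Nutlin. Heat shock genes, targets of HSF1, rose in 13 of 20 without and 17 of 20 with Nutlin, where 13.2% and 16.2% of all genes rose. HSPH1, a co-chaperone of HSP70, was higher by the double difference (0.63, SE 0.19, adjusted p = 0.039, call lost in 13 of 27 alternatives, with an adjusted p up to 0.124). Over all genes, 4.11% were higher and 9.98% lower by the double difference. The counts of this list and of the matrix, glycolysis and ATF4 lists are near these shares or below them. None of 26 matrix genes and none of 19 tested genes of glycolysis and hypoxia (20 listed) passed. Of 24 genes of the ATF4 and unfolded protein responses, DDIT4 was lower (-1.83, SE 0.25, adjusted p = 0.00082). DDIT4, an inhibitor of mTORC1 that stress induces, had 20.3, 19.4 and 5.94 CPM in DMSO, 20.3, 22.5 and 12.6 in Nutlin, 9.97, 12.1 and 15 in PD30, 4.7, 6.78 and 5.73 in PD24, 41.1, 44.3 and 45.2 in N+PD30 and 5.12, 5.09 and 6.84 in N+PD24. N+PD30 was above every other library, and DDIT4 fell upon removal in both arms, with effects of -1.07 and -2.90.

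**Figure D4:**
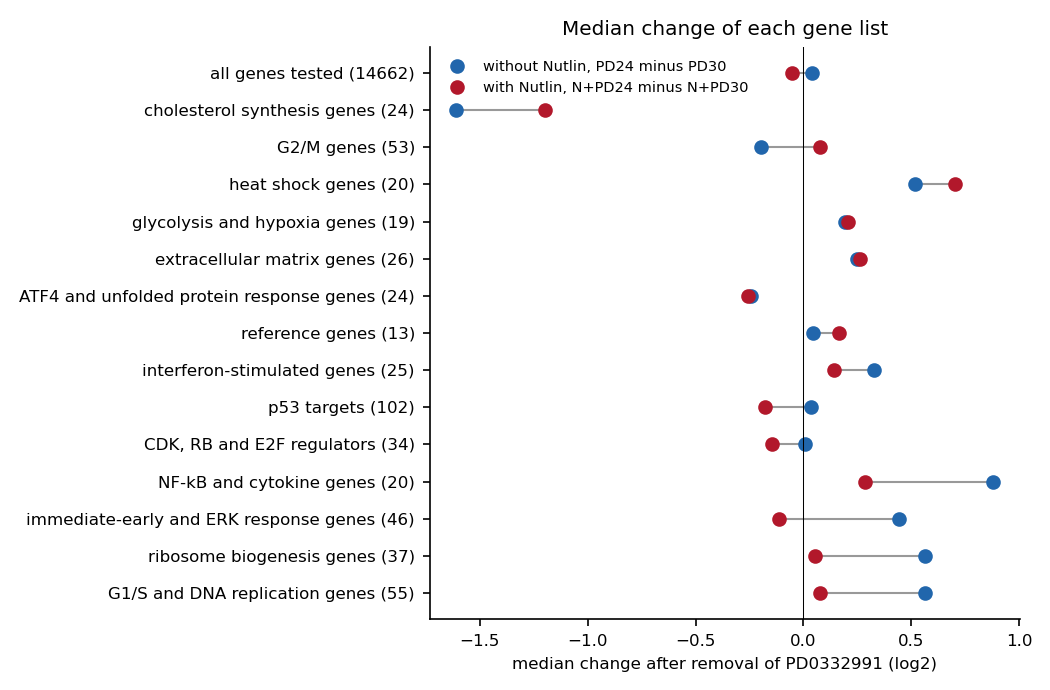
Median removal effect (log2) of each gene list without Nutlin (blue) and with Nutlin (red), with the number of tested genes in brackets, and of all genes tested at the top. In the 4 lists at the bottom the red point lies to the left of the blue one well apart from it, for cholesterol synthesis genes it lies to the right of a strongly negative blue point, and for matrix, glycolysis and ATF4 genes both points nearly coincide.

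Of the 13 reference genes, 1 was higher and 1, TBP, was lower, where 4.11% of all genes were higher and 9.98% lower. TBP, the TATA-binding protein, stood at 12.6, 13.4 and 15.8 CPM in PD30, 14.3, 14.1 and 14.6 in PD24, 11.1, 12.9 and 14.4 in N+PD30 and 5.61, 5.82 and 7.26 in N+PD24, where N+PD24 was below all other libraries, and had -1.06 (SE 0.20, adjusted p = 0.0052). RPLP0, a ribosomal protein gene used as a reference in the study, had overlapping groups in both arms and a double difference of -0.054 (SE 0.22, adjusted p = 0.89).

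The genes on either side differed in structure. Annotation was found for 524 of the 602 and 1434 of the 1463 genes. The lower genes had a median gene span of 16.0 kb with 6 exons, and the higher genes 73.7 kb with 10 exons, where all genes tested had 33.9 kb and 9. The median GC content of their transcripts was 55.1%, 45.3% and 48.4%. In the shortest quintile of genes 17.7% were lower and 2.05% higher, and in the longest quintile 1.54% and 8.04%. From the lowest to the highest quintile in GC content, the share of lower genes went from 4.06% to 18.3% and that of higher genes from 4.67% to 1.4%. As the libraries themselves differed along GC content, the double difference was recomputed with this dependence smoothed out of each library. It was then positive in 612 and negative in 1626 of 13922 genes, of which 461 and 1176 were also called before, or 76.6% and 80.4% of the first lists and 75.3% and 72.3% of the second. With gene span smoothed out as well, 603 and 1426 were called, 370 and 1021 of them before. No gene changed from one direction to the other among the calls of either. Past an absolute double difference of 1, GC smoothing left 360 higher and 554 lower of 13922 genes, against 376 and 742 of 14662. With span smoothed out too, they were 361 and 448. Whether GC content and span have a part in the remaining calls was not tested.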

How the data were processed

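Total RNA was sequenced as single-end reads of 50 bases. As the methods and labels state, the authors mapped them to hg19 with TopHat and Bowtie2 then used HTSeq 0.6.0, set to reverse-stranded reads, to obtain a count for each gene symbol. The authors deposited counts for 5 groups and, for N+PD24, a normalized signal (counts divided by 1 factor per library). Multiplied back, 100% of the N+PD24 values were whole within 0.01 reads. The deposited table of the authors' comparison and 2 tables of means were not used. The 4 tables were joined by row (23368 rows, 28 with names turned into dates).

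CPM were TMM-scaled and log2(CPM + 0.25) was fitted in limma 3.58.1 (R 4.3.3) with an intensity trend, 4 group means over 12 libraries, on 14662 genes with a mean of at least 0.5 CPM, with Benjamini-Hochberg adjustment over all of them. A gene that is low in the other groups could pass this filter through its level in 1 group, and then be called in 1 direction only. Fold changes of low genes are understated on this scale. Nutlin against DMSO was fitted on its own 6 libraries. Simulated double differences of 2 and 1 (log2) in 200 of 14662 genes were recovered in 96% and 50%. The changed genes were drawn from those with a mean of at least 2 CPM, so the recovery does not cover lower genes. The simulated libraries had no GC trend and no deviations shared by replicate number. Alternatives included edgeR 4.0.16 and DESeq2 1.42.0 on the recovered reads. Symbols were matched to GENCODE on GRCh37 for 91.8% of rows. The genes named are the 12 largest double differences in each direction with at least 2 CPM, up to 2 per list and direction, and the genes the study follows; a few further members are named after their values were seen, and a few genes are not reported here. The members and lists were chosen with earlier results of these data known. The 3 libraries of each group are biological replicates of 1 cell line, as the study describes them.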

Additional observations from a re-analysis of the deposited data

Results flagged for a closer look

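The response to removal of PD0332991 differed between cells with and without Nutlin by the test of the difference itself, in 602 genes towards a higher and in 1463 towards a lower level with Nutlin. Among the named genes, the positive double differences on the log2 scale were KRT4 3.77, RAG1 3.62, FAT2 3.38, KRT78 3.34, GOLGA6C 2.98, HMMR 2.98, RPSAP52 2.96, MYO16 2.73, ABCC2 2.63, ZC3H6 2.63, INHBC 2.57, KRT77 2.55, TYMS 0.79, ASPM 1.39, E2F2 1.70, TNFRSF10A 2.05, ABCA12 1.61, NR4A2 1.08, ETV1 0.71, HSPH1 0.63, VWF 1.22 and CDKN1A 1.35. The negative ones were TIGD5 -3.08, HIC1 -3.04, ZNHIT2 -2.92, ZNF628 -2.91, MAP1S -2.76, JUNB -2.74, MEX3B -2.45, ZNF256 -2.44, ZNF48 -2.43, SOCS1 -2.39, ZNF71 -2.39, ZNF775 -2.38, MCM5 -1.64, POLD1 -1.61, BORA -1.28, INCENP -1.12, LIN9 -1.52, LIN37 -1.22, SCO2 -2.39, SERTAD1 -1.77, JUND -1.92, RRS1 -1.22, BOP1 -1.13, DDIT4 -1.83, NFKBIE -1.53, TRAF1 -1.42, IRF1 -0.79 and TBP -1.06. Groups of 3 libraries were not searched for single outlying values.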

How the results depend on the processing

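In all 27 alternatives the lower genes outnumbered the higher ones, and in none was a gene called in the opposite direction. Leaving out 1 of the 12 libraries at a time gave 327 to 708 higher and 814 to 1581 lower genes, 2289 to 3904 genes changed by removal without Nutlin (2289 without replicate 1 of PD30) and 4342 to 5632 with it. The higher genes numbered 1172 with no filter, 379 with a filter of 2 CPM and 955 with DESeq2. With an absolute log2 value above 1, 376 were higher and 742 lower, and 833 and 1597 changed by removal without and with Nutlin. Quantile normalization gave 891 and 1002, a share of 47.1% higher instead of 29.1%. The other normalizations, pseudocounts, edgeR and the fit of all 18 libraries kept both counts within 1.5 times.

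Replicate numbers are shared by the groups, but the main fit has no replicate block. Of 18 same-numbered pairs of libraries, 16 had correlated deviations above 0.1 (0.049 to 0.62). Of the 12 libraries, 11 correlated best with their own number. The main fit leaves such shared deviations in its estimate of the spread. With the replicate block, 1291 genes were higher and 2499 lower. The alternatives with GC content were chosen after seeing the data. With the replicate block and GC content smoothed out, 1430 were higher, 2660 lower and 6340 changed by removal without Nutlin. The cause of these shifts was not tested.

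Of 50 named genes that passed the threshold, 37 passed in every alternative with the same sign. The call was lost in 1 or 2 alternatives for ASPM, LIN37, ETV1 and IRF1 and in 5 to 14 for KRT77, TYMS, POLD1, LIN9, SCO2, NR4A2, BOP1, TRAF1 and HSPH1, with adjusted p of 0.0501 to 0.315; in these 9 genes leaving out any of several libraries, from 5 to 9 of the 12, was enough. The sign turned only in genes that had not passed. With GC content smoothed out it was 0.087 for TP53I3, with or without the replicate block. With gene span smoothed out too it was 0.21 for TP53I3, 0.053 for BBC3, -0.13 for CDK6, 0.040 for CCND1, -0.19 for RB1 and 0.12 for RPLP0. Leaving out 1 library at a time gave -0.097 to 0.036 for CCND1 (positive without replicate 1 of PD30 or of N+PD30) and -0.22 to 0.095 for RPLP0 (positive without replicate 3 of PD30 or N+PD24, or replicate 1 of N+PD30). With the replicate block, 1291 of all 14662 genes were higher and 2499 lower. Of the lists, 11 of 34 CDK, RB and E2F regulators and 15 of 46 immediate-early genes were lower. Of 53 G2/M genes, 11 were higher and 5 lower. In that fit the lower regulators and the higher G2/M genes were above the share of all genes. Over all alternatives, 9 to 27 G1/S genes, 6 to 19 ribosome biogenesis genes and 9 to 25 p53 targets were lower. The same alternatives called 814 to 2660 of all genes lower. Depth limits the calls of genes near 0.5 CPM, above all in replicate 1 of N+PD30.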
